A study of Mus musculus with 12 samples.

Results

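The p53 module examined here holds 32 genes: the p53 family (Trp53, Trp63 and Trp73), 4 regulators of the p53 protein, and 25 target genes of growth arrest and feedback, apoptosis and DNA repair. Members were taken by gene symbol, and 32 of 32 were found among the 24421 symbols of both deposited count tables. The cells were mouse androgenetic haploid embryonic stem cells (ESCs), whose single chromosome set comes from sperm, with a C57BL/6 background in every group. The groups were wild-type (WT) OdG cells (2 libraries), 2 Etl4 knockout (KO) lines made in OdG (line 1 and line 2, 2 libraries each), WT EG1 cells (3 libraries) and 1 Etl4 KO line made in EG1 (3 libraries). The labels name no treatment, no damaging agent and no change in Trp53 in any group. The labels do not tie replicates to separate cultures, so a p-value here is measured against a spread between libraries that may be technical only. OdG and EG1 libraries were deposited in separate tables, and parental line and table cannot be told apart.

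The transcription factor p53 binds as a tetramer to a pair of short palindromic half-sites and switches on genes that stop the cell cycle, repair DNA or trigger cell death. Its protein is kept low by the ubiquitin ligase Mdm2 and its partner Mdm4, and Mdm2 is itself a p53 target, which closes a feedback loop. Mouse ESCs transcribe Trp53 strongly for a cell that is not stressed, and haploid cultures are known to lose haploid cells to genome doubling and, through p53, to arrest and death.

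The comparisons asked how the module stood in the 2 parental lines and how it changed when Etl4 was knocked out in each. RefSeq promoter windows (GRCm38.p6, from 250 bases before to 50 bases after a start) were available for 23 of the 32 members and were searched for the p53 response element, the element for which these target genes are known. The search took 2 adjoining 10-base half-sites with no spacer, allowed up to 2 mismatches in 20 bases and kept the core C and G of each half-site fixed. The consensus is palindromic, so both strands were covered. A match was found in 4 members, in 19 no match was found, and over all RefSeq genes 106 of 27025 (0.39%) had a match. The 4 stretches are shown because they hold the letters p53 is known to read, here with the match in capitals, 5′ to 3′ on the strand of the gene. They lie at chr17:29090868-29090978 (plus strand), chr11:40755402-40755536 (minus), chr15:85859885-85859964 (plus) and chr4:154097174-154097299 (minus).
Cdkn1a: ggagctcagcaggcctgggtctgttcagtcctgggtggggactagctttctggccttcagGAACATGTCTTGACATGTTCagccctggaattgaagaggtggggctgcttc
Ccng1: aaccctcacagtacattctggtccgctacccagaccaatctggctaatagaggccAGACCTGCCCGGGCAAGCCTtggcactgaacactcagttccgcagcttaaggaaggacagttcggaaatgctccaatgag
Gtse1: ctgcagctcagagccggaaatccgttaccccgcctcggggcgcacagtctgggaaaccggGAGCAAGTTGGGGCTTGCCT
Trp73: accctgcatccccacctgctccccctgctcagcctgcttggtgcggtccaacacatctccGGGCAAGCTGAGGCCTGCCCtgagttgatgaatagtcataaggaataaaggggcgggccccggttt

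The Cdkn1a, Ccng1 and Gtse1 matches fit the consensus at 19 of 20 bases and the Trp73 match at 18. RefSeq gives 2 starts for Cdkn1a, Gtse1 and Trp73 and 1 for Ccng1 in this table. The Cdkn1a match begins 51 bases before the upstream start, and that start lies 2790 bases before the other. The match begins 195 bases before the Ccng1 start. The Gtse1 match spans the downstream start, beginning 1 base before it, and this start lies 239 bases inside the gene from the upstream start. The Trp73 match begins 66 bases before an internal start, which lies 42702 bases downstream of the first, and no match was found at the first. A match describes these letters only and was not set against any binding data.

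Library totals ran from 16110028 to 19706599 counts, and 1 CPM (the unit used for all levels here, counts relative to the library's effective size with the 12 libraries on the same scale) stood for 15.9 to 19.7 counts. Etl4, the targeted gene, was at 206.8 ± 3.42 CPM in OdG WT, 98.2 ± 2.91 in line 1 and 110.5 ± 3.08 in line 2 (SD, n = 2 each), and at 265.1 ± 2.77 in EG1 WT and 133.3 ± 1.46 in EG1 KO (SD, n = 3 each), a log2 change of -0.98 ± 0.034 in OdG KO and -0.99 ± 0.036 in EG1 KO. Markers of ESCs were present in every group (10 of 10 at 1 CPM or more, summed level 7370 to 8340 CPM in OdG groups and 9320 to 9570 in EG1 groups). Fas had 0 to 12 counts in any library and was tested in no fit. Eda2r was too low in OdG for the OdG fit, and Trp63 was too low in EG1 for the EG1 fit. Eda2r thus passed the count filter of the fit of all 12 libraries only through its EG1 libraries. It stays in the counts of members higher in EG1 below, where its direction followed from that filter.

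EG1 WT cells carried much more RNA of Trp53, of both Mdm inhibitors and of most target genes than OdG WT cells. Trp53 was 8.01-fold higher, cyclin G1 (Ccng1) 14.5-fold, Puma (Bbc3) 11.4-fold, and Eda2r, a death receptor of the TNF receptor family, was at 0.231 to 0.707 CPM in OdG WT and 135 to 139 CPM in EG1 WT. Of 31 members tested, 26 were higher in EG1 WT and 2 lower (Ddb2 and Xpc) at an adjusted p under 0.05 (edgeR's quasi-likelihood test, Benjamini-Hochberg over all genes), and 3 were not called. Eda2r, which passed the count filter through EG1 only, is among the 26. Across all 14977 genes tested, 70.3% were called, 35.0% higher and 35.4% lower. With a change of at least 1.5-fold also required, 23 members were higher and 0 lower, while of all genes 35.5% were called past that size, 16.7% higher and 18.8% lower. The median log2 difference was 1.27 over the members tested and -0.004 over all genes. The count of 0 was also 0 at an unadjusted p under 0.05 in edgeR and with DESeq2, and the lowest member, Xpc, was at a log2 difference of -0.40.

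**Figure D1:**
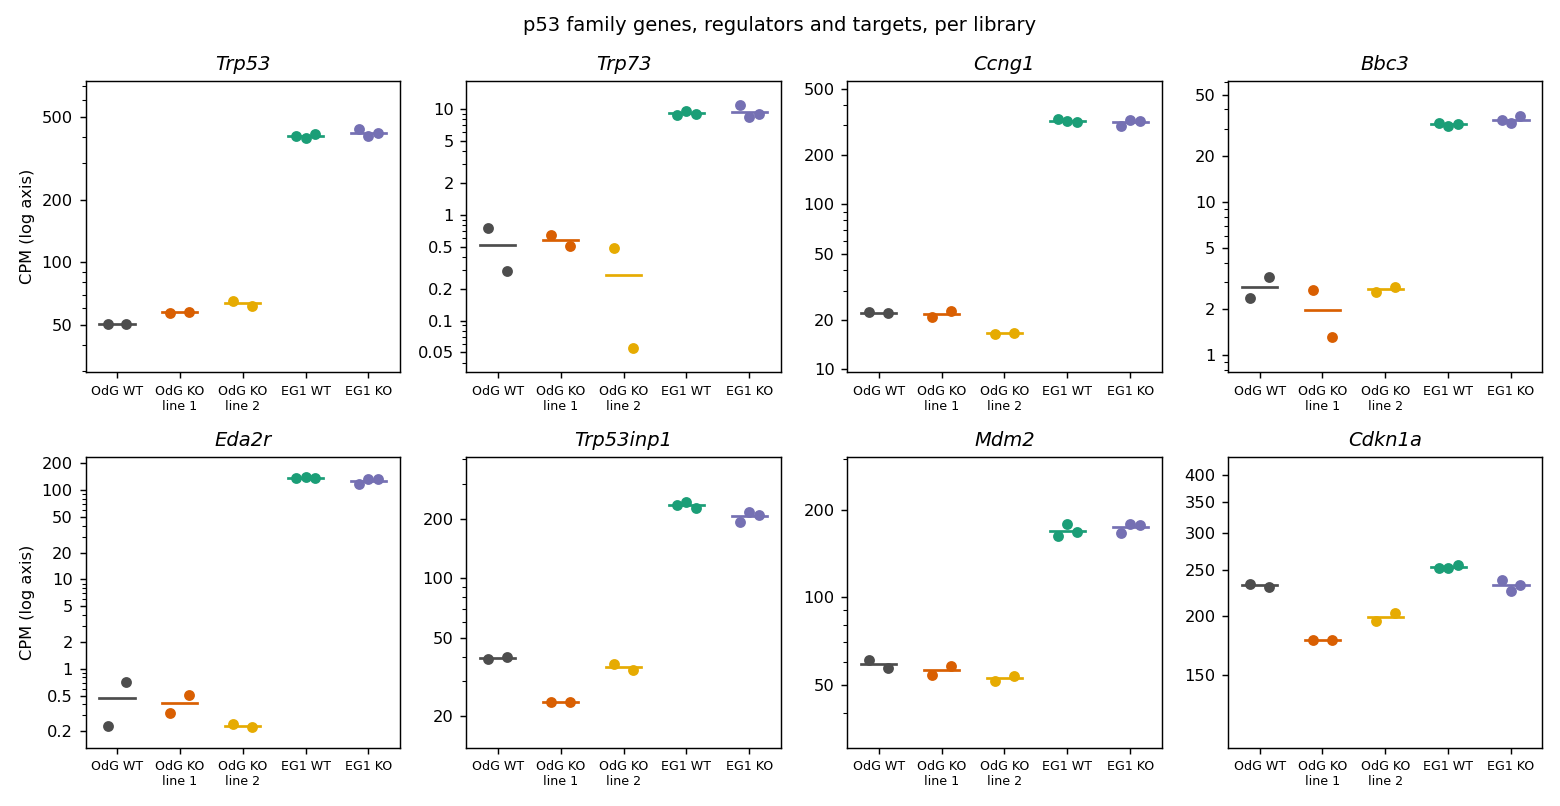
Level in CPM (log axis, a separate scale for each gene) of 8 members in each of the 12 libraries, points being libraries and bars group means. All EG1 libraries lie above all OdG libraries for the genes shown other than Cdkn1a, whose EG1 KO libraries (226 to 239 CPM) overlap OdG WT (231 and 234 CPM).

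In the p53 family, Trp53 (mm10 chromosome 11, 69580348 to 69591873) was at 50.7 and 50.5 CPM in OdG WT and at 406, 397 and 413 CPM in EG1 WT. All EG1 values were far above the OdG values, and the log2 difference was 3.0 ± 0.045 (SE, adjusted p = 6.4e-31). Trp73, which encodes the relative p73 and has a match at its internal start, was at 0.749 and 0.295 CPM in OdG WT and at 8.73, 9.48 and 9.01 CPM in EG1 WT. The groups did not overlap, and Trp73 was 17.1-fold higher in EG1 WT (log2 4.09 ± 0.27, adjusted p = 2.1e-14). Over all libraries the Trp73 counts were 989 in EG1 and 47 in OdG, a ratio of 20.3 (95% counting interval 15.2 to 27.9, which covers counting error only). Trp63, the family member known from stratified epithelia, had 21 counts in EG1 WT and 6 in OdG WT, a ratio of 2.18 (95% counting interval 0.852 to 6.61), and did not pass the test (adjusted p = 0.19). In the KO libraries it had 17 counts in EG1 and 42 in OdG, 30 of them in line 2, a ratio of 0.538 (0.287 to 0.965). There the groups overlapped and Trp63 did not pass the test (adjusted p = 0.21), though it became called without EG1 KO replicate 1 (0.028).

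Genes next to Trp53 differed in both directions. Within 100 kb of the gene, 17 other genes were listed and 13 were tested. Their log2 differences between EG1 WT and OdG WT ran from -1.12 to 1.86 with a median of 0.33, with 8 called higher and 4 lower. Of all genes 35.0% were higher and 35.4% lower, with a median of -0.004. The log2 difference of Trp53 itself was 3.0, and its relation to those of its neighbours was not tested.

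Among the regulators, Mdm2, the ligase that marks p53 for degradation, was at 60.9 and 56.9 CPM in OdG WT and 162, 178 and 168 CPM in EG1 WT. Mdm4, which blocks p53 activity as the partner of Mdm2, was at 140 and 139 CPM in OdG WT and 414, 421 and 402 CPM in EG1 WT. Both were higher in every EG1 library, Mdm2 by 2.87-fold (log2 1.52 ± 0.051, adjusted p = 6.4e-22) and Mdm4 by 2.96-fold (log2 1.57 ± 0.04, adjusted p = 7.4e-25). Usp7, a deubiquitinase that acts on Mdm2 and p53, was 1.72-fold higher (log2 0.78 ± 0.033). Cdkn2a, whose Arf product holds Mdm2 in check, did not pass the test (28.6 and 28.8 CPM against 28.1, 28.6 and 29.9 CPM, log2 0.01 ± 0.08, adjusted p = 0.94).

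Of the 9 arrest and feedback genes, 8 were higher in EG1 WT and 7 of them by at least 1.5-fold, where 35.0% and 16.7% of all genes were. Ccng1, a cyclin that recruits a phosphatase to Mdm2, was at 22.2 and 22.0 CPM in OdG WT and 328, 320 and 316 CPM in EG1 WT. Trp53inp1, a stress-induced nuclear protein that acts with p53, was at 39.1 and 40.0 CPM against 235, 243 and 227 CPM. For both genes the groups were wide apart, with log2 differences of 3.86 ± 0.053 for Ccng1 (adjusted p = 7.4e-32) and 2.57 ± 0.054 for Trp53inp1 (adjusted p = 3.3e-27). The kinase gene Plk2 (log2 2.28 ± 0.1), the microtubule-binding p53 inhibitor Gtse1 (1.99 ± 0.051), the RNA-binding protein gene Zmat3 (1.86 ± 0.047), the antiproliferative gene Btg2 (1.86 ± 0.07) and Sesn2, an inhibitor of mTORC1 (1.04 ± 0.056), were also higher. Cdkn1a, which encodes the cell-cycle inhibitor p21 and is the best-known p53 target, stood apart from these. It was at 234 and 231 CPM in OdG WT and at 253, 253 and 257 CPM in EG1 WT, so the groups did not overlap but differed by only 1.10-fold (log2 0.13 ± 0.036, adjusted p = 0.0017). Sesn1 was at 47.0 and 42.9 CPM against 43.1, 46.0 and 43.2 CPM and did not pass the test (adjusted p = 0.69).

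All 11 of the apoptosis genes tested were called higher in EG1 WT, and 10 of them by at least 1.5-fold, where 35.0% and 16.7% of all genes were. Eda2r is in both counts, though it passed the count filter through EG1 only, so its direction there was set by that filter. Eda2r had 0.231 and 0.707 CPM in OdG WT and 135, 139 and 137 CPM in EG1 WT. Its counts gave a ratio of 294 (95% counting interval 181 to 515), and the OdG side of that ratio rests on few counts. Bbc3, which encodes the BH3-only protein Puma, was at 2.36 and 3.24 CPM against 32.5, 31.3 and 32.2 CPM (log2 3.51 ± 0.13, adjusted p = 1.5e-20). Bax, the pore-forming protein that permeabilises mitochondria, was at 86.3 and 91.2 CPM against 221, 218 and 224 CPM (log2 1.32 ± 0.045). In all 3 genes the lowest EG1 WT library was above the highest OdG WT library. Pmaip1 (the BH3-only protein Noxa) was 1.72-fold higher, Apaf1 (the core of the apoptosome) 1.65-fold, Tnfrsf10b (the receptor for TRAIL) 1.84-fold, Perp (a membrane protein of desmosomes) 2.11-fold and Pidd1 (the scaffold of the PIDDosome) 3.08-fold. The nuclease gene Aen was 3.07-fold and Ei24 2.01-fold higher, and Phlda3, an inhibitor of Akt, was called with a difference of 1.15-fold. Fas had 50 counts in all EG1 libraries and 18 in all OdG libraries, a ratio of 2.68 (95% counting interval 1.54 to 4.89). Of those 18 counts, 4 were in OdG WT, 14 in line 1 and 0 in line 2. The line 1 libraries (0.315 and 0.484 CPM) overlapped the EG1 libraries (0.283 to 0.677 CPM).

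The repair genes were mixed. Polk, a translesion polymerase, was at 15.7 and 16.7 CPM in OdG WT and 39.5, 37.5 and 40.1 CPM in EG1 WT, without overlap (log2 1.27 ± 0.082, adjusted p = 1.1e-14). Xpc, which detects bulky lesions, was lower, at 42.7 and 39.1 CPM against 32.8, 28.8 and 31.4 CPM (log2 -0.40 ± 0.067, adjusted p = 4.3e-06). Ddb2, which detects ultraviolet lesions, was called lower (log2 -0.36 ± 0.11, adjusted p = 0.0054), but the call rested on OdG WT replicate 2 (21.2 CPM, against 15.3 CPM in replicate 1). Without that library the adjusted p was 0.47, and without EG1 WT replicate 3 it was 0.052, within a range of 8.3e-05 to 0.47 over 18 alternative settings. Rrm2b, a ribonucleotide reductase subunit, was called higher by 1.21-fold (adjusted p = 0.0086), and leaving out OdG WT replicate 1 ended this call (adjusted p = 0.25, range 0.0015 to 0.25 over 18 settings).

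The KO libraries gave a comparison of the parental lines whose group means share no library with the WT comparison. Both were tested in the same joint fit, with the same scaling and estimate of spread, and the KO lines were made in these same parents. The KO comparison was added after the WT values had been seen, and it weighs the 2 OdG KO lines alike. Of 31 members tested, 27 were higher in EG1 KO than in OdG KO and 1, Xpc, was lower. Across all genes 67.9% were called, 34.2% higher and 33.6% lower. With at least 1.5-fold required, 22 members were higher and 0 lower (also 0 at an unadjusted p under 0.05 in edgeR and with DESeq2), against 15.8% and 13.0% of all genes (28.9% in either direction), and the median log2 difference was 1.18 over the members and 0.003 over all genes. Trp53 was 6.94-fold higher (log2 2.79 ± 0.034), Ccng1 16.6-fold and Bbc3 14.6-fold, and Eda2r had a count ratio of 400 (95% counting interval 264 to 638).

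Put together, 21 members were at least 1.5-fold higher in EG1 in both the WT and the KO comparison and 0 were lower in both, while 10.9% of all genes were higher in both and 10.1% lower in both. In 24 members all 6 EG1 libraries lay above all 6 OdG libraries, as did 19.6% of all genes. Eda2r, which passed the count filter through EG1 only, is among the 21 and the 24. In 1 member, Xpc, all EG1 libraries lay below all OdG libraries, as did 19.1% of all genes. The other 6 members tested, Trp63, Cdkn2a, Cdkn1a, Sesn1, Ddb2 and Rrm2b, overlapped between the lines. Cdkn1a was at 178 to 203 CPM in the OdG KO libraries and at 226 to 239 CPM in the EG1 KO libraries, the latter covering the OdG WT values of 231 and 234 CPM.

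**Figure D2:**
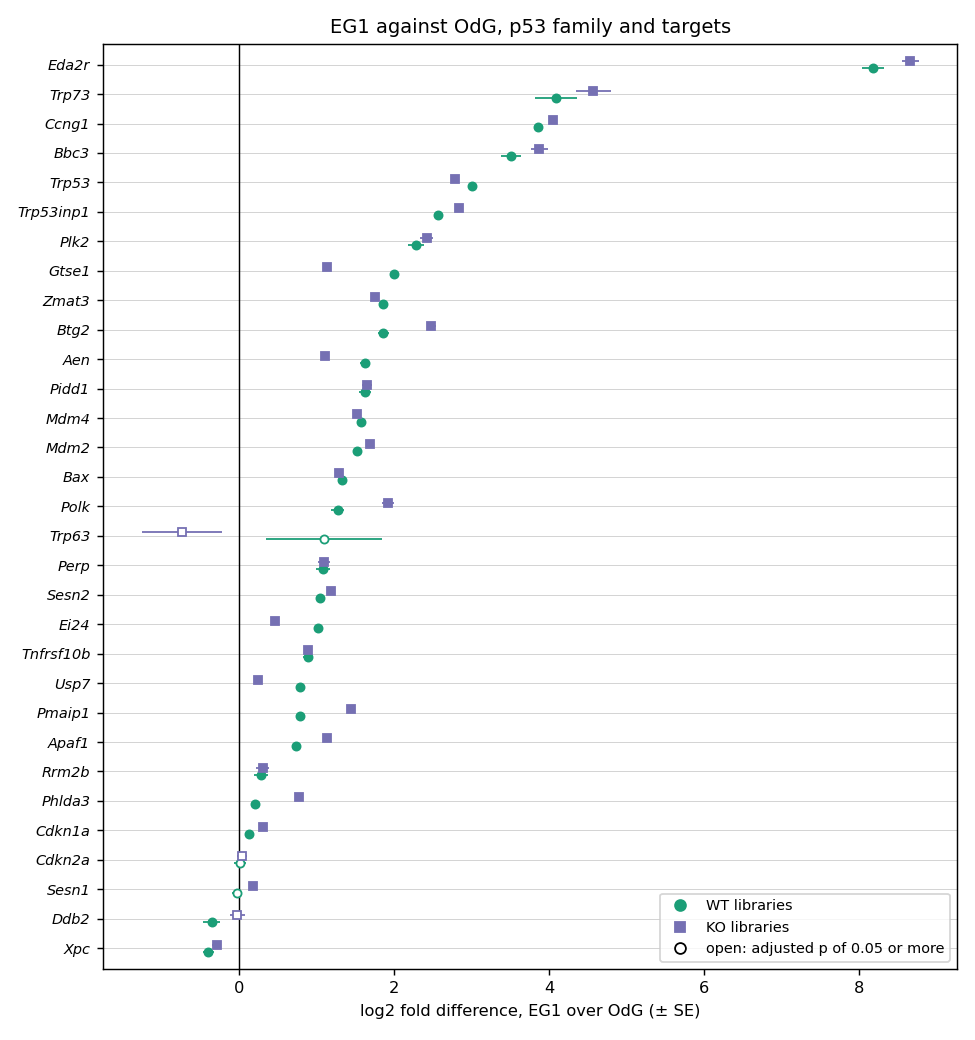
Log2 fold difference of EG1 over OdG (± SE) for 31 members, in WT libraries (circles) and in KO libraries (squares), with open symbols where the adjusted p was 0.05 or more. Most members lie to the right of 0, from 0.13 (Cdkn1a) to 8.18 (Eda2r) among those called higher in WT, and Xpc lies to the left in both comparisons.

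Markers of differentiated cells differed between the parental lines, most of them lower in EG1. The 6-gene list of differentiation markers summed to 168 to 246 CPM in OdG libraries and 12.6 to 15.5 CPM in EG1 libraries. Of 6 tested, 4 were lower and 1 higher in EG1 WT, where 35.4% and 35.0% of all genes were. Cdx2 was at 83.0 ± 4.20 CPM in OdG WT (SD, n = 2) and 1.23 ± 0.232 CPM in EG1 WT (SD, n = 3). Sox1 went the other way, at 1.34 CPM in OdG WT and 3.885 in EG1 WT. The 13-gene fibroblast (feeder) list summed to 67.4 to 73.8 CPM in OdG WT and 49.5 to 52.2 CPM in EG1 WT, and its members moved both ways. Of 8 tested, 3 were higher in EG1 WT (Col5a1 at 8.98 CPM in OdG WT and 22.7 in EG1 WT, Fbn1 at 2.65 and 9.48, Thy1 at 3.11 and 5.04) and 5 were lower, Pdgfrb among them (30.3 and 2.13 CPM). Lum, Dcn and Postn, at 0 counts in EG1 WT, were under 1 CPM in OdG WT too. Of the 10 ESC markers, 6 were higher and 4 lower in EG1 WT than in OdG WT, where 35.0% and 35.4% of all genes were. Nanog was at 641.7 CPM in OdG WT and 1422 in EG1 WT, and Tfcp2l1 at 1560 and 1283. The part of all these markers in the differences between the lines was not tested. In bulk RNA, fewer cells with a transcript and less of it per cell cannot be told apart.

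Etl4 KO in OdG moved members in both directions, and the share of members called was near that of all genes. Gtse1, Aen, Usp7, Ei24 and Trp53 itself rose, and Pmaip1, Btg2, Polk, Apaf1 and Cdkn1a fell, by less than 2-fold in each case. Of 30 members tested, 6 were higher and 10 lower in OdG KO than in OdG WT and 14 were not called, and of 14413 genes tested 59.9% were called, 29.4% higher and 30.5% lower. With at least 1.5-fold required, 3 members were higher (Trp63, Gtse1 and Aen) and 3 lower (Btg2, Pmaip1 and Polk), against 6.13% and 13.0% of all genes. The median log2 change was -0.11 over the members and -0.01 over all genes. With both KO lines merged into 1 group of 4 libraries, 6 members were lower in place of 10, and Trp63, Ccng1, Trp53inp1, Phlda3 and Ddb2 were no longer called.

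In the family and among the regulators, Trp53 was at 57.2 and 58.0 CPM in line 1 and 65.3 and 61.8 CPM in line 2, all above the OdG WT values given above (log2 0.26 ± 0.047, adjusted p = 0.00012). Usp7 was at 399 and 381 CPM in OdG WT, 547 and 558 CPM in line 1 and 602 and 600 CPM in line 2. Usp7 was thus higher in all 4 KO libraries, with a log2 change of 0.57 ± 0.028 (adjusted p = 1.5e-11). Mdm2 (log2 -0.11 ± 0.05, adjusted p = 0.058), Mdm4 (0.02 ± 0.033) and Cdkn2a (-0.03 ± 0.067) did not pass the test. Trp63 was called higher from 6 counts in OdG WT and 42 in OdG KO (adjusted p = 0.025), but its adjusted p ranged from 0.024 to 0.2 over 11 alternative settings, and it was no longer called once OdG WT replicate 1, line 1 replicate 1, line 1 replicate 2 or line 2 replicate 1 was left out.

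Among the 9 arrest and feedback genes, Gtse1 rose and 5 fell, where 29.4% of all genes rose and 30.5% fell. Gtse1 was at 46.2 and 41.1 CPM in OdG WT, 79.0 and 83.2 CPM in line 1 and 87.0 and 86.5 CPM in line 2 (log2 0.95 ± 0.05, adjusted p = 4.1e-11). Btg2 was at 23.3 and 21.5 CPM in OdG WT, 13.1 and 11.8 CPM in line 1 and 15.8 and 12.9 CPM in line 2 (log2 -0.74 ± 0.091, adjusted p = 2.1e-06). Cdkn1a was at 178 CPM in both libraries of line 1 and at 195 and 203 CPM in line 2, below the 234 and 231 CPM of OdG WT (log2 -0.30 ± 0.032, adjusted p = 3.3e-07). In none of the 3 genes did the 4 KO libraries overlap the WT libraries. Of the genes with a promoter match, Cdkn1a thus fell while Gtse1 rose. Trp73, which also has a match, had 18 counts in OdG WT and 29 in OdG KO and did not pass the test (log2 -0.42 ± 0.57, adjusted p = 0.55). Ccng1 was at 22.2 and 22.0 CPM in WT, 20.8 and 22.5 in line 1 and 16.4 and 16.7 in line 2. Ccng1 was called lower over both lines (log2 -0.22 ± 0.075, adjusted p = 0.018). It was no longer called when OdG WT replicate 1, OdG WT replicate 2 or line 1 replicate 1 was left out (adjusted p 0.076, 0.055 and 0.058), with DESeq2 (0.14) and when both KO lines were merged into 1 group of 4 libraries (0.31), where the 11 settings ranged from 0.018 to 0.31. Sesn1 was called lower (log2 -0.23 ± 0.059), a call that ended when OdG WT replicate 1 was left out (adjusted p = 0.059, range 0.00046 to 0.059 over 11 settings).

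Among the 10 apoptosis genes tested, 2 rose and 3 fell, where 29.4% of all genes rose and 30.5% fell. Pmaip1 was at 75.8 and 80.0 CPM in OdG WT, 37.6 and 38.8 CPM in line 1 and 43.7 and 44.8 CPM in line 2. Every KO library was well below WT, and at log2 -0.92 ± 0.048 (adjusted p = 3.1e-11) it was the largest fall in the module. Apaf1 fell from 46.5 and 45.9 CPM to between 31.2 and 33.7 CPM in the 4 KO libraries (log2 -0.50 ± 0.058, adjusted p = 8.3e-07). Aen rose from 32.7 and 32.6 CPM to between 48.1 and 52.5 CPM (log2 0.63 ± 0.057, adjusted p = 3.9e-08). Ei24, which encodes a membrane protein of the endoplasmic reticulum linked to autophagy, rose from 101 and 96.7 CPM to between 135 and 152 CPM (log2 0.55 ± 0.037, adjusted p = 9e-10). Bax, Bbc3, Tnfrsf10b, Perp and Pidd1 did not pass the test over both lines, with log2 changes from -0.26 ± 0.24 (Bbc3) to 0.08 ± 0.088 (Pidd1). Line 1 alone had Bax (log2 0.16 ± 0.046), Tnfrsf10b (0.22 ± 0.065) and Pidd1 (0.28 ± 0.1) called higher than WT. Those calls were lost with DESeq2 (adjusted p 0.059, 0.065 and 0.14) and without line 1 replicate 1 (0.053, 0.08 and 0.06). In line 2 they were not called (-0.04 ± 0.046, -0.10 ± 0.067 and -0.12 ± 0.1). Bbc3 and Perp were called in neither line. In the repair group Polk fell from 15.7 and 16.7 CPM to between 8.32 and 12.1 CPM (log2 -0.67 ± 0.096, adjusted p = 1e-05). Ddb2 was called lower (log2 -0.28 ± 0.11, adjusted p = 0.031), a call that rested on OdG WT replicate 2, without which the log2 change was -0.03 and the adjusted p 0.84 (range 0.00013 to 0.84 over 11 settings). The Ddb2 call was also lost without line 1 replicate 2, line 2 replicate 1 or line 2 replicate 2.

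Marker genes also differed between the OdG KO and OdG WT groups. Of the ESC markers 9 of 10 were called higher and 1 lower in OdG KO, where 29.4% and 30.5% of all genes were. Nanog was at 641.7 CPM in WT, 964.3 in line 1 and 951.1 in line 2. The ESC list summed to 7370 to 7440 CPM in WT, 8250 to 8340 in line 1 and 7780 to 7810 in line 2. The differentiation list summed to 196 to 211 CPM in WT, 242 to 246 in line 1 and 168 to 180 in line 2. Over both lines, 1 of its 6 genes was called higher and 2 lower, where 29.4% and 30.5% of all genes were. The feeder list summed to 49.9 to 50.0 CPM in line 1 and 38.0 to 40.7 CPM in line 2, below OdG WT. Of its 8 members tested, 3 were called in line 1, each of them lower, where 52.8% of all genes were called and 26.1% were lower. In line 2, 2 were called higher and 4 lower, where 30.0% and 29.8% of all genes were. Col5a1 was at 8.98 CPM in WT and 13.7 in line 2, and Pdgfrb at 30.3 CPM in WT, 15.2 in line 1 and 8.73 in line 2. Those at 0 counts, Col3a1, Lum and Postn in line 1 and Twist2 in line 2, were under 1 CPM in WT. The part of these markers in the changes above was not tested.

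**Figure D3:**
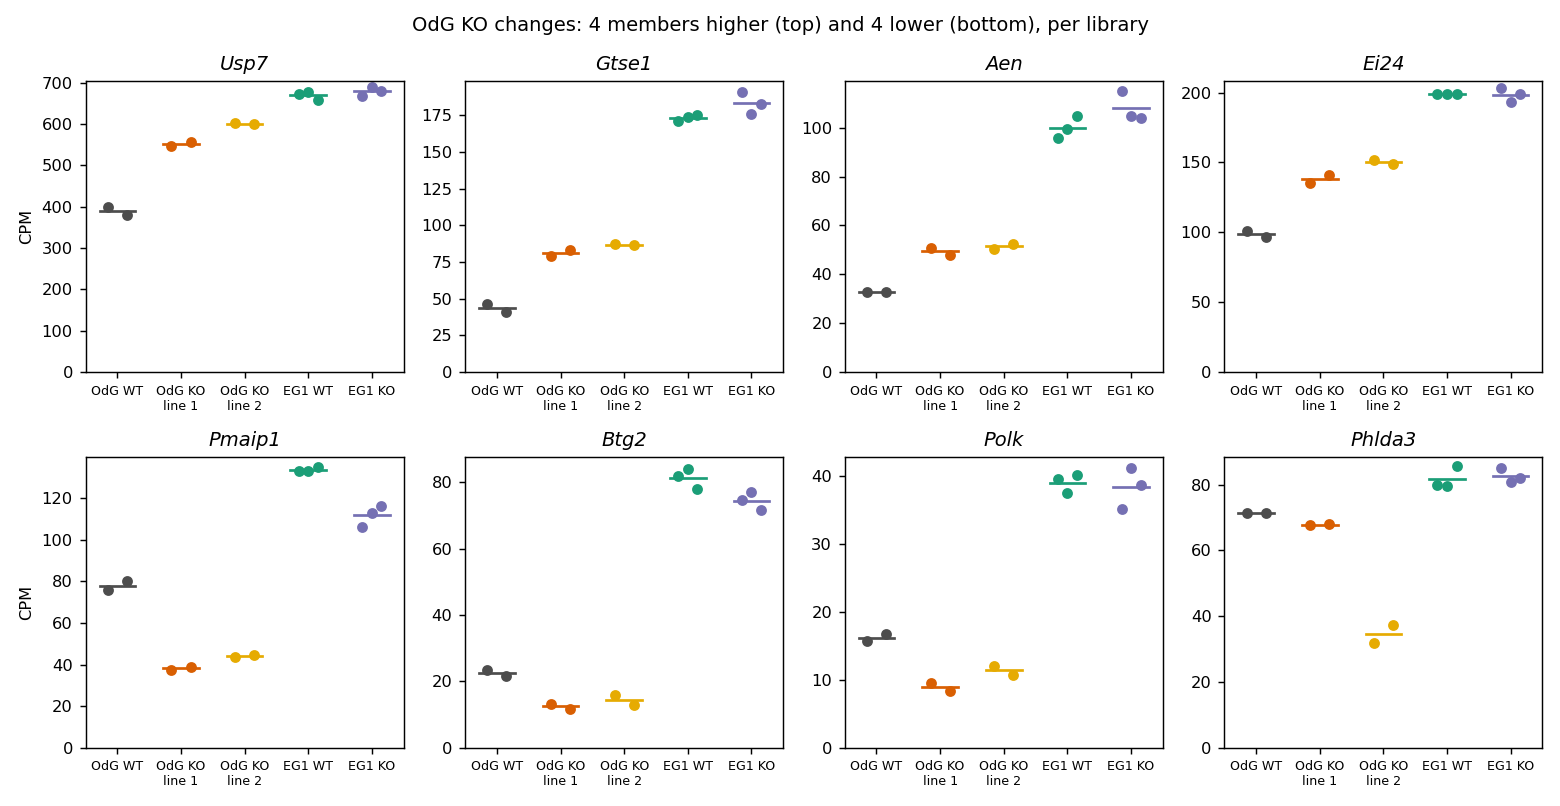
Level in CPM (linear axes from 0) of 8 members in each of the 12 libraries, points being libraries and bars group means; the members are the 4 with the largest rises (Trp63, with few counts, left aside) and the 4 with the largest falls in OdG KO. Phlda3 is low in line 2 only (31.9 and 37.2 CPM), and the EG1 KO libraries lie near EG1 WT except for Pmaip1.

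The 2 OdG KO lines come from the same parent and share the same 2 WT libraries, and they were also compared with each other directly. In line 1, 8 members were higher and 10 lower than in WT (52.8% of all genes called, 26.8% higher and 26.1% lower), and in line 2, 7 were higher and 9 lower (59.9% called, 30.0% higher and 29.8% lower). Past 1.5-fold, line 1 had 2 members higher (Gtse1 and Aen) and 4 lower (Btg2, Trp53inp1, Pmaip1 and Polk), where 4.26% and 12.3% of all genes were. Line 2 had 5 higher (Trp63, Usp7, Gtse1, Aen and Ei24) and 3 lower (Btg2, Pmaip1 and Phlda3), where 9.11% and 14.5% of all genes were. Directly compared, 8 members were higher and 6 lower in line 2 than in line 1, where 37.8% of all genes were called, 18.6% higher and 19.2% lower. Single libraries moved these counts, with 5 members higher in line 1 without line 1 replicate 1 (1 of them past 1.5-fold) and 6 lower without line 1 replicate 2. Likewise 5 members were higher in line 2 than in line 1 without line 1 replicate 1 or line 2 replicate 1, and 4 without line 2 replicate 2. Past 1.5-fold, 1 member was higher in line 2, Trp53inp1, and 1 was lower, Phlda3, where 7.89% and 4.73% of all genes were. Without line 2 replicate 1 the Trp53inp1 difference fell under 1.5-fold, and without line 1 replicate 1 the members past 1.5-fold and higher in line 2 were 2.

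Phlda3 was at 71.4 and 71.3 CPM in OdG WT, 67.7 and 67.9 CPM in line 1 and 31.9 and 37.2 CPM in line 2. Its log2 change from WT was -1.03 ± 0.064 in line 2 (adjusted p = 3.2e-10) and -0.07 ± 0.059 in line 1 (adjusted p = 0.34), and line 2 was below line 1 by -0.96 ± 0.065 (adjusted p = 2.5e-09). Trp53inp1 was low in the other line, at 39.1 and 40.0 CPM in WT, 23.5 and 23.6 CPM in line 1 and 36.8 and 34.4 CPM in line 2. Its log2 change was -0.74 ± 0.073 in line 1 (adjusted p = 1.9e-07) and -0.14 ± 0.069 in line 2 (adjusted p = 0.083), and line 2 was above line 1 by 0.60 ± 0.074 (adjusted p = 5.7e-06). Both genes were called lower in OdG KO as the mean of the lines (Phlda3 -0.55 ± 0.052, Trp53inp1 -0.44 ± 0.061). With the lines merged into 1 group, whose spread then includes the gap between the lines, the adjusted p was 0.28 for Phlda3 (range 3.7e-25 to 0.28 over 11 settings) and 0.16 for Trp53inp1 (6.6e-10 to 0.16). Mdm4 was lower than WT in line 1 (129 and 127 CPM, log2 -0.12 ± 0.038) and higher in line 2 (153 and 154 CPM, log2 0.15 ± 0.038), a difference between lines of 0.27 ± 0.038 (adjusted p = 2.7e-05). The Mdm4 call in line 1 (adjusted p = 0.015) was not held with DESeq2 (0.12), nor when line 1 replicate 1 (0.053) or line 1 replicate 2 (0.13) was left out, in a range of 0.017 to 0.13 over 10 settings.

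Etl4 KO in EG1 changed few members, and by little. Sesn2 rose, Pmaip1, Trp53inp1 and Cdkn1a fell, and Trp53, both Mdm genes, Bax, Bbc3, Ccng1 and Eda2r did not pass the test. Of 30 members tested, 1 was higher, 3 were lower and 26 were not called, and of 14016 genes tested 7.66% were called, 3.60% higher and 4.06% lower. No member reached 1.5-fold in edgeR, also at an unadjusted p under 0.05, or in DESeq2, a size which 0.314% of all genes reached upwards and 1.11% downwards at an adjusted p under 0.05 (1.43% in either direction). Sesn2 was at 94.4, 94.6 and 94.8 CPM in EG1 WT and 121, 109 and 110 CPM in EG1 KO (log2 0.26 ± 0.043, adjusted p = 8.3e-05). Pmaip1 was at 133, 133 and 135 CPM against 106, 113 and 116 CPM (log2 -0.26 ± 0.041, adjusted p = 2.6e-05). In both genes the groups did not overlap. Trp53inp1 was at 235, 243 and 227 CPM against 192, 217 and 210 CPM, without overlap (log2 -0.19 ± 0.04, adjusted p = 0.0022). Cdkn1a was at 253, 253 and 257 CPM against 239, 226 and 233 CPM, also without overlap (log2 -0.13 ± 0.035, adjusted p = 0.017). The Cdkn1a call was lost without EG1 WT replicate 1 (adjusted p = 0.062), EG1 WT replicate 3 (0.097), EG1 KO replicate 2 (0.084) or EG1 KO replicate 3 (0.065), within a range of 0.0013 to 0.097 over 10 settings. Trp53 was at 437, 404 and 417 CPM in EG1 KO, overlapping EG1 WT (log2 0.05 ± 0.034, adjusted p = 0.45), and Usp7 at 668, 689 and 681 CPM also overlapped EG1 WT (log2 0.02 ± 0.03, adjusted p = 0.78). The feeder list summed to 48.9 to 54.5 CPM in EG1 KO, over the range of EG1 WT. Of its 6 members tested 1 was called, Col1a1, which was higher (4.99 CPM in WT and 7.48 in KO), where 3.60% of all genes were. Col3a1, Lum, Dcn and Postn were at 0 counts in EG1 KO and under 1 CPM in EG1 WT. Of the 10 ESC markers 2 were called higher and 1 lower in EG1 KO, where 3.60% and 4.06% of all genes were. The differentiation list summed to 12.6 to 14.3 CPM in EG1 WT and 14.4 to 15.5 CPM in EG1 KO. Of its 5 genes tested, 0 were called, where 7.66% of all genes were. The part of these markers was not tested.

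**Figure D4:**
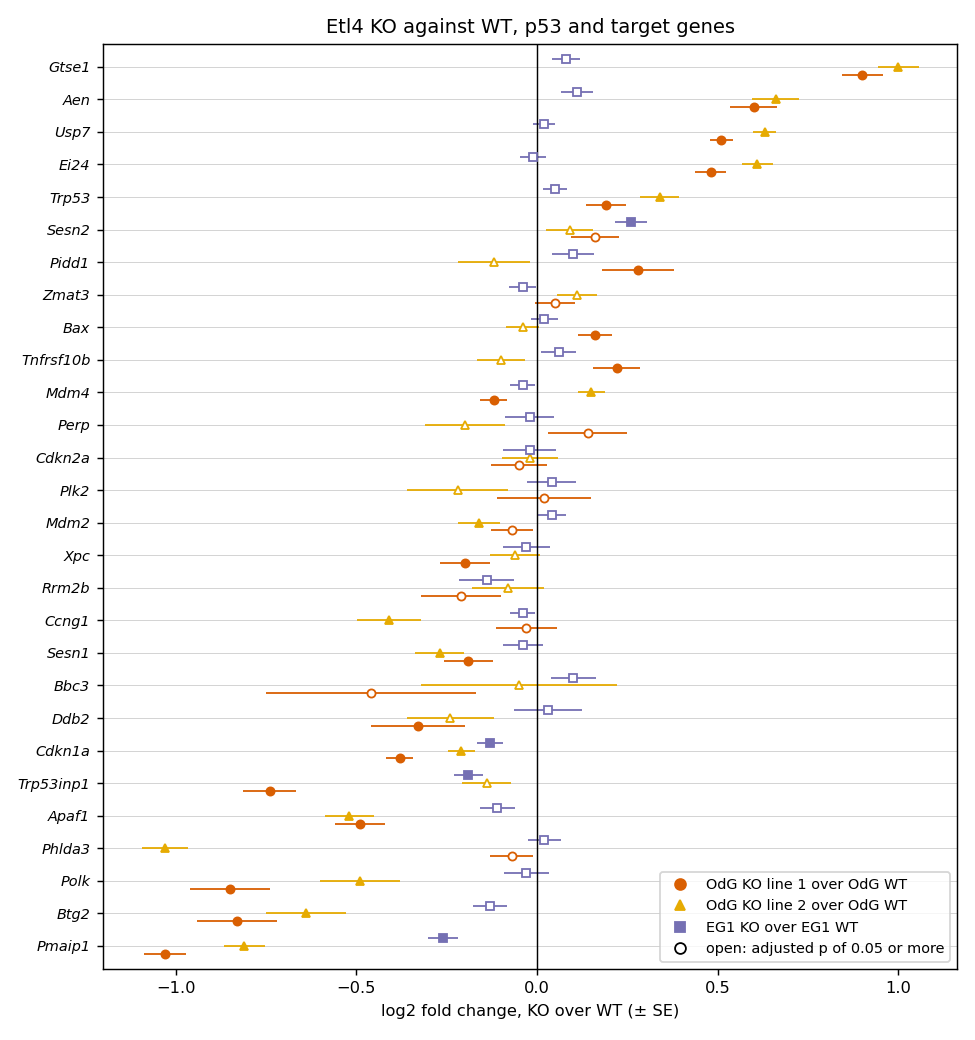
Log2 fold change of Etl4 KO over its own WT (± SE) for 28 members (Trp63 and Trp73, with few OdG counts, left aside) in OdG line 1 (circles), OdG line 2 (triangles) and EG1 (squares), with open symbols where the adjusted p was 0.05 or more; both OdG lines share their WT libraries. EG1 values lie between -0.26 (Pmaip1) and 0.26 (Sesn2), while OdG values reach from -1.03 (Pmaip1 in line 1, Phlda3 in line 2) to 1.00 (Gtse1 in line 2).

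The KO effect itself, measured in 2 OdG lines and 1 EG1 line, differed in 14 of 31 members tested. Of these, 5 had a higher and 9 a lower change in OdG than in EG1, while 39.8% of all genes differed, 20.2% higher and 19.5% lower. With 1 KO line in EG1, a difference between parents cannot be told apart from one between KO lines. The p-values cover the spread between libraries only. With both OdG KO lines merged into 1 group, 6 of the 14 were no longer called. Past 1.5-fold, 1 member was higher (Gtse1; 2 without EG1 KO replicate 1) and 3 were lower (Pmaip1, Polk and Btg2), where 4.91% and 8.51% of all genes were. For Pmaip1 the fall in OdG was deeper than that in EG1 by 0.66 ± 0.062 on the log2 scale (adjusted p = 5.6e-10), and for Cdkn1a by 0.18 ± 0.047 (adjusted p = 0.0032). The Cdkn1a difference was not called with the OdG KO lines merged (adjusted p = 0.11). For Gtse1 the change was higher in OdG by 0.86 ± 0.064 (adjusted p = 3.1e-12) and for Usp7 by 0.54 ± 0.042 (adjusted p = 8.3e-12). For Sesn2, called in EG1 but not in OdG, the difference of -0.15 ± 0.071 did not pass the test (adjusted p = 0.099).

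Further genes of the pathway were read from 3 lists. Of 41 further p53 targets tested, 27 were higher and 10 lower in EG1 WT than in OdG WT, and past 1.5-fold 24 were higher and 5 lower, with a median log2 difference of 0.75. Of all genes 35.0% were higher and 35.4% lower, past 1.5-fold 16.7% and 18.8%, with a median of -0.004. Only 39 of the 41 targets passed the count filter in the OdG fit, and the others entered through EG1. The largest differences were in Zfp365 (1.78 CPM in OdG WT and 66.3 CPM in EG1 WT, log2 5.21 ± 0.11), the mTORC1 inhibitor gene Ddit4l (1.57 and 20.5 CPM, 3.70 ± 0.15), the microtubule regulator Psrc1 (15.3 and 186 CPM, 3.60 ± 0.059) and the adenylate kinase gene Ak1 (16.1 and 113 CPM, 2.81 ± 0.061). The lipid transfer protein gene Pltp (56.1 and 21.3 CPM, log2 -1.40 ± 0.075), Tm7sf3 (-0.69 ± 0.039), the long non-coding RNA Trp53cor1 (-0.62 ± 0.17) and Steap3 (-0.55 ± 0.078) were lower in EG1 WT. In EG1 KO against OdG KO, 28 of these 41 targets were higher and 7 lower, where 34.2% and 33.6% of all genes were.

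In OdG KO, 9 of 39 further targets were higher and 13 lower than in WT, where 29.4% and 30.5% of all genes were. Tigar, which lowers glycolytic flux (47.0 CPM in WT and 89.1 CPM in KO, log2 0.93 ± 0.042), and Fbxo22 (0.68 ± 0.041) rose, and Pltp (-0.92 ± 0.057) and the adhesion gene Ninj1 (33.4 CPM in WT and 19.4 CPM in KO, -0.78 ± 0.067) fell. In EG1 KO, 3 of 41 were higher and 1 lower, where 7.66% of all genes were called in either direction. Gdf15 (log2 0.31 ± 0.098), Gadd45a (0.29 ± 0.069) and Tigar (0.17 ± 0.042) rose, and Ninj1 fell (-0.29 ± 0.074).

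Of 33 damage kinases, p53 modifiers and cofactors, 18 were higher and 9 lower in EG1 WT than in OdG WT (35.0% and 35.4% of all genes), and 5 differed by at least 1.5-fold, as did 35.5% of all genes. These were the corepressor Daxx (log2 0.77 ± 0.053), the ligase Rchy1 (0.74 ± 0.068), the kinases Hipk2 (0.62 ± 0.098) and Aurka (0.61 ± 0.04) and, in the other direction, the p53 inhibitor Ppp1r13l (-1.04 ± 0.096). In EG1 KO against OdG KO, 11 were higher and 14 lower (34.2% and 33.6% of all genes). In OdG KO 16 were higher and 6 lower than in WT (29.4% and 30.5% of all genes), with Hipk2 (log2 0.56 ± 0.093, 1.48-fold) and the acetyltransferase gene Crebbp (0.54 ± 0.049) highest and Ppp1r13l (-0.57 ± 0.085) lowest. In EG1 KO 1 of the 33 was higher, H2afx (0.12 ± 0.036), and 1 lower, Ppp1r13l (-0.35 ± 0.11), where 3.60% and 4.06% of all genes were.

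Of 16 cell-cycle genes known to be repressed through p53, p21 and the DREAM complex, 11 were higher and 3 lower in EG1 WT than in OdG WT (35.0% and 35.4% of all genes). Where 35.5% of all genes were called past 1.5-fold in either direction, 1 of these 16 was. That gene was the mitotic activator Cdc20 (163 CPM in OdG WT and 246 CPM in EG1 WT, log2 0.59 ± 0.037). In OdG KO 7 were higher and 5 lower (29.4% and 30.5% of all genes), with Cdc20 (log2 0.72 ± 0.031) and the cytokinesis motor gene Kif23 (-0.60 ± 0.033) moving furthest. In EG1 KO 3 of the 16 were higher, Cdc20 (0.26 ± 0.035), Ube2c (0.15 ± 0.034) and Plk1 (0.13 ± 0.037), and 0 lower. Of all genes 3.60% were higher and 4.06% lower.

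The counting strand is not given in the sources used here, so reads of Zmat3, Apaf1 and Ddb2 may include some of the listed genes that overlap them (4930429B21Rik, Ikbip and Acp2). RNA levels say nothing of p53 protein, whose amount is set mainly after translation.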

How the data were processed

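Per the labels' protocols, libraries were made with the NEBNext Ultra kit from 1 µg of Trizol-extracted RNA. The tools listed in the submitters' processing notes are HISAT2 2.1.0, CASAVA, DESeq2 and featureCounts 1.6.4, with mm10 as the build. No source used here gives the annotation or the strand setting. The values the authors deposited are raw counts, whole numbers for each symbol, in 2 tables. Groups and replicate numbers came from sample titles, and replicates of each group differed by more than sampling noise.

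Counts were filtered (filterByExpr), scaled (TMM) and tested two-sided with edgeR 4.0.16 (R 4.3.3, quasi-likelihood, 1 mean per group, Benjamini-Hochberg over all genes tested). KO was tested within each table (14413 and 14016 genes), and parental lines and the interaction in a joint fit (14977 genes). OdG KO is the mean of its 2 lines. Members and lists were chosen with earlier results of these data known. Genes of the 3 lists were named as up to 4 per direction and comparison. These had the largest called change among those at 5 CPM or more in the higher group, with groups that did not overlap. All members are named for EG1 WT against OdG WT. In the other comparisons, members tested but not named are included in the counts only. Simulated data were used to check the scripts. Alternatives were DESeq2 1.42.0, another scaling, no filter, a replicate block and leaving out each library. Coordinates and promoters are from RefSeq.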

Additional observations from a re-analysis of the deposited data

Results flagged for a closer look

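The Etl4 KO effect differed between OdG and EG1 in 14 members, by the interaction test over all 12 libraries. EG1 has 1 KO line, so a difference between parents cannot be told apart from one between KO lines. Values are the log2 KO change in OdG minus that in EG1. The difference was positive for Gtse1 (0.86), Usp7 (0.54), Ei24 (0.54), Aen (0.52) and Trp53 (0.21). It was negative for Pmaip1 (-0.66), Polk (-0.65), Btg2 (-0.62), Phlda3 (-0.58), Apaf1 (-0.40), Trp53inp1 (-0.27), Sesn1 (-0.20), Ccng1 (-0.19) and Cdkn1a (-0.18). With both OdG KO lines merged into 1 group, Trp53 (adjusted p = 0.057), Cdkn1a (0.11), Ccng1 (0.37), Sesn1 (0.099), Trp53inp1 (0.43) and Phlda3 (0.30) were no longer called. Ccng1 (adjusted p = 0.038) was also no longer called with DESeq2 (0.085) and in 9 of the 12 fits that each leave out 1 library, with a range of 0.0091 to 0.37 over 17 settings. Sesn1 (adjusted p = 0.039) was also no longer called with DESeq2 (0.11), without the filter on low counts (0.057), with the replicate block (0.051) and in 8 of those 12 fits, with a range of 0.017 to 0.27 over 17 settings.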

How the results depend on the processing

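Under the alternatives, 3171 values of single members were recomputed: 3036 stayed on their side of the threshold, 109 were no longer called, 26 became called and 0 changed direction while called. With both OdG KO lines merged into 1 group, members lower in OdG KO were 6 (10 in the design used) and those with a lower KO effect in OdG than in EG1 were 4 (9); the cause was not tested. With DESeq2, line 1 had 4 members higher (8) and 6 lower (10) than WT, and line 2 had 4 higher than line 1 (8); the cause was not tested. Leaving out 1 library at a time, members higher and lower ranged over 5 to 6 and 9 to 10 in OdG KO, 5 to 9 and 6 to 9 in line 1, 7 to 7 and 9 to 9 in line 2, 4 to 8 and 4 to 6 in line 2 against line 1, 1 to 1 and 2 to 3 in EG1 KO, 25 to 27 and 1 to 2 in EG1 WT against OdG WT, 27 to 28 and 1 to 2 in EG1 KO against OdG KO, and 5 to 6 and 7 to 10 in the interaction.

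Of all genes, the merged KO group called 2378 higher and 2231 lower in OdG KO (4241 and 4397 in the design used) and 1661 and 1407 in the interaction (3030 and 2928). With at least 1.5-fold required, it called 490 higher in OdG KO (884) and 427 and 796 in the interaction (736 and 1275). DESeq2 called 2427 lower in line 1 (3757), 1542 higher and 1688 lower in line 2 against line 1 (2680 and 2774; past 1.5-fold 739 higher, 1137 in the design used), and 309 lower in EG1 KO (569; past 1.5-fold 99, with 156 in the design used). Genes higher in EG1 KO (505) were 257, 283 and 293 without EG1 WT replicates 1, 2 and 3, and genes lower (569) were 365 without replicate 3.

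Replicate numbers did not pair the libraries (correlation of deviations between same-numbered libraries -0.0414 to 0.0691). With the replicate block, members higher and lower were 6 and 10 in OdG KO, 1 and 3 in EG1 KO and 26 and 2 in EG1 WT against OdG WT, the counts of the fit without it, and in the interaction Mdm2 became called (adjusted p = 0.044) while Sesn1 did not stay called (0.051). Depth limits Fas, Trp63 and, in OdG, Eda2r and Trp73, which had at most 17 counts in any such library.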
